A study of Macaca fascicularis with 16 samples.

Results

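Estradiol added to tamoxifen was compared with tamoxifen alone in the endometrium of 8 of the 16 animals of the series, 4 per group, chosen by their sample titles. The animals were cynomolgus macaques, all female and postmenopausal, randomized to parallel arms and treated for 4 months, after which endometrium was taken and total RNA was hybridised to 1 array per animal. The tamoxifen animals received 20 mg of tamoxifen per 1800 kcal. The combination animals received that dose of tamoxifen and, in addition, 0.25 mg of micronized estradiol per 1800 kcal. The remaining 8 animals received placebo, called control here, or the same dose of estradiol without tamoxifen, and served to find out which genes estradiol moved when it was given by itself. The Affymetrix arrays carried probes for transcripts of the rhesus macaque, a closely related monkey. Of the 52865 probe sets on the array, 31660 were bright enough to be tested, and 10706 genes with a single platform symbol were each represented by the brightest of their probe sets.

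Estradiol acts through the estrogen receptors ESR1 and ESR2, nuclear receptors that bind DNA once occupied by hormone and recruit coactivators to target genes. In the endometrium it drives division of glands and stroma, induces the progesterone receptor and raises growth factors such as IGF1. Tamoxifen is a selective estrogen receptor modulator. It occupies the same ligand pocket, competes with estradiol and acts as an antagonist in breast but with partial agonist activity in the uterus. Adding estradiol to tamoxifen therefore puts both ligands in front of the same receptor.

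All levels below are log2(signal + 4.80) and all changes are differences of mean levels, with a standard error (SE) and 95% interval from a limma fit over all 16 arrays. A gene was counted as held within 2-fold where its whole 95% interval lay between -1 and 1 on the log2 scale, which bounds the difference from both sides, while a p-value that misses its threshold does not. The 4 arrays per arm limit the precision. Median signals ran from 58.7 to 70.3 over the 16 arrays. Pairs of tamoxifen arrays correlated at a median r of 0.955 across probe sets, pairs of combination arrays at 0.969, and pairs of 1 array from each at 0.962, against 0.907 for pairs of 1 estradiol and 1 control array. Tamoxifen 1 lay at the end of the range of the tamoxifen arrays in tissue markers. The score of 18 smooth muscle genes is their mean deviation from the average over all arrays. It was -0.76 in tamoxifen 1 and 0.0025 to 0.55 in the other tamoxifen arrays. The score of 14 epithelial genes was 0.85 in tamoxifen 1 and -0.50 to 0.35 in the others. The median SD between arrays over genes was 0.219 with tamoxifen, 0.175 without tamoxifen 1, and 0.176 with the combination. The log2 ratio of the 3′ to the 5′ actin control probe sets, a measure of RNA integrity, was 0.52 ± 0.043 with tamoxifen and 0.55 ± 0.075 with the combination (SD, n = 4). It was 0.92 ± 0.11 in the control arrays and 0.57 ± 0.18 in the estradiol arrays. Its part in comparisons that use those arrays was not tested.

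Adding estradiol to tamoxifen moved no gene past the threshold. Of 31660 probe sets, 0 differed between the combination and tamoxifen at an adjusted p under 0.05 (limma, Benjamini-Hochberg; 0% called), and the smallest adjusted p was 1.00. At an unadjusted p under 0.05 there were 1283 probe sets, or 4.05%, and 396 genes, or 3.70%. The median size of a gene's difference was 0.109 on the log2 scale, and 95% of genes differed by less than 0.469. Only 56 of 10706 genes had a mean difference of 2-fold or more, 36 higher and 20 lower with added estradiol, none of them past the threshold. For 9532 genes, 89.0% of those tested, the whole interval lay within 2-fold, so for these a 2-fold difference in either direction lay outside the 95% interval. In bulk tissue, fewer cells of a type and less RNA per cell cannot be told apart.

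The same dose of estradiol without tamoxifen changed the endometrium widely. Between the estradiol and control arrays, which enter the comparison above through the shared estimate of the spread and not through its means, 8062 probe sets and 3176 genes passed the threshold (29.7% of genes called), 1766 of them higher and 1410 lower with estradiol. Among these, 680 genes (6.35% of those tested) had a change of at least 2-fold and no overlap between the 4 arrays of each arm, 468 higher and 212 lower. These 680 genes are called estradiol-responsive here. They were chosen on the estradiol and control arrays, and their values there are a description. Estradiol 4 stood apart in tissue makeup, with a smooth muscle score of -2.80 against 0.033 to 0.32 in the other estradiol arrays, and without it 636 genes counted as responsive.

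In the presence of tamoxifen the same 680 genes were close to where tamoxifen alone had put them. None was called in combination minus tamoxifen. The median difference, counted as positive in the direction in which estradiol alone had moved the gene, was 0.046, with quartiles of -0.11 and 0.28, against a median change of 1.39 with estradiol alone. For 657 of the 680 (96.6%) the interval of combination minus tamoxifen excluded the estimate of the estradiol change without tamoxifen. So did 2965 of all 3176 genes called with estradiol alone. The 680 were chosen for large estradiol estimates, whose own error did not enter, so this count is a description. The whole interval lay within 2-fold for 469 (69.0%), a smaller share than the 89.0% of all genes. The responsive genes also had wider intervals, with a median half-width of 0.61 against 0.363 over all genes. The estimate lay in the estradiol direction for 392 genes (57.6%), and at an unadjusted p under 0.05 there were 26 in that direction and 11 against it, beside 3.70% of all genes.

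The direction of this small remainder rested on single arrays. With the responsive genes chosen again without estradiol 4 (636 genes), the median was 0.044. For the same 680 genes, the median without tamoxifen 1 was 0.204 with 506 genes in the estradiol direction. Without tamoxifen 2 it was -0.06 with 282. A score of the 680 genes per array, in the estradiol direction, read 0.58, -0.21, 0.066 and 0.043 in tamoxifen 1 to 4 and 0.25, 0.22, 0.19 and 0.12 in combination 1 to 4. Tamoxifen 1 lay above all 4 combination arrays and the other tamoxifen arrays lay below them, so that the groups overlapped. The control arrays scored between -1.0 and -0.82 and the estradiol arrays between 0.13 and 0.99. Over all 10706 genes the differences of combination minus tamoxifen and estradiol minus control, which share no array, correlated across genes at Pearson's r = 0.069 (Spearman's rho = 0.036), and over the 680 responsive genes at 0.152 (0.174). Genes are not independent replicates, and these are given as a description.

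**Figure D1:**
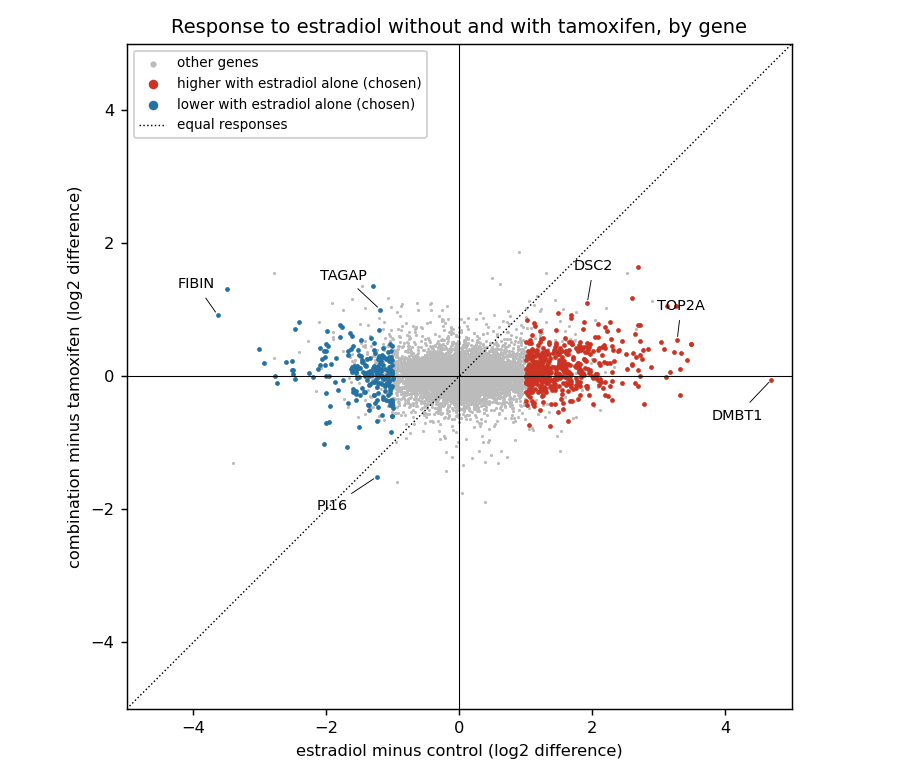
Each point is 1 of 10706 genes, placed by its log2 difference of estradiol minus control on the horizontal axis and of combination minus tamoxifen on the vertical axis, with the 680 estradiol-responsive genes coloured. The cloud is wide from left to right, where 95% of genes lie within 1.26, and narrow from bottom to top, where 95% lie within 0.469, and it follows the horizontal line rather than the diagonal.

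Receptors and their coregulators were held throughout. The list had 20 tested members, and the interval of combination minus tamoxifen lay within 2-fold for all 20 and within 1.5-fold for 18. Over all genes those counts were 9532 and 6725 of 10706. ESR1, the main estrogen receptor of the endometrium, read 9.34, 8.65, 8.95 and 8.95 in tamoxifen 1 to 4 and 8.82, 9.18, 9.09 and 8.66 in combination 1 to 4. The arms interleaved, and the difference was -0.03 (SE 0.21, 95% interval -0.48 to 0.41). ESR2, the second estrogen receptor, read 6.31, 5.51, 6.59 and 5.28 with tamoxifen and 5.47, 6.27, 6.42 and 6.14 with the combination. Both arms spread over about the same range, with a difference of 0.15 (SE 0.33, 95% interval -0.56 to 0.86). The narrowest intervals of the list belonged to coregulators: EP300, a histone acetyltransferase recruited by nuclear receptors, differed by -0.00 (SE 0.06, 95% interval -0.13 to 0.12), and NCOA4, a receptor coactivator that also delivers ferritin for breakdown, by 0.04 (SE 0.08, 95% interval -0.13 to 0.21).

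PGR, the progesterone receptor and a classical readout of estrogen action, read 10.38, 10.06, 10.05 and 10.09 in the tamoxifen animals and 9.80, 10.28, 10.18 and 9.48 in the combination animals. Added estradiol left 2 of the 4 arrays inside the tamoxifen range and 2 below it, with none above, and the difference was -0.21 (SE 0.22, 95% interval -0.69 to 0.27). Without tamoxifen the same dose had moved PGR from 9.24, 8.56, 9.67 and 9.71 in the controls to 10.46, 10.35, 10.58 and 10.81, with no overlap and a rise of 1.26 (SE 0.22) (adjusted p = 0.00115, limma). The estradiol response of PGR thus differed with and without tamoxifen by -1.47 (SE 0.32) (adjusted p = 0.0120, limma interaction contrast, called interaction below). Tamoxifen alone, measured on the same tamoxifen arrays, stood 0.85 (SE 0.22) above control (adjusted p = 0.0220, limma).

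GREB1, an estrogen receptor cofactor induced by estradiol, read 9.74, 9.29, 9.36 and 9.14 with tamoxifen and 8.71, 10.03, 8.67 and 9.85 with the combination. The combination arrays lay on both sides of the tamoxifen range, 2 above and 2 below it, and the difference was -0.07 (SE 0.29, 95% interval -0.68 to 0.54). Estradiol alone raised GREB1 by 1.06 (SE 0.29) (adjusted p = 0.0141, limma). NRIP1, a corepressor that estradiol induces and that restrains receptor activity, read 11.59, 10.61, 11.08 and 10.45 with tamoxifen and 10.70, 11.14, 10.76 and 10.96 with the combination, all within the tamoxifen range. Its difference was -0.04 (SE 0.21), against a rise of 1.02 with estradiol alone (adjusted p = 0.00260, limma).

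**Figure D2:**
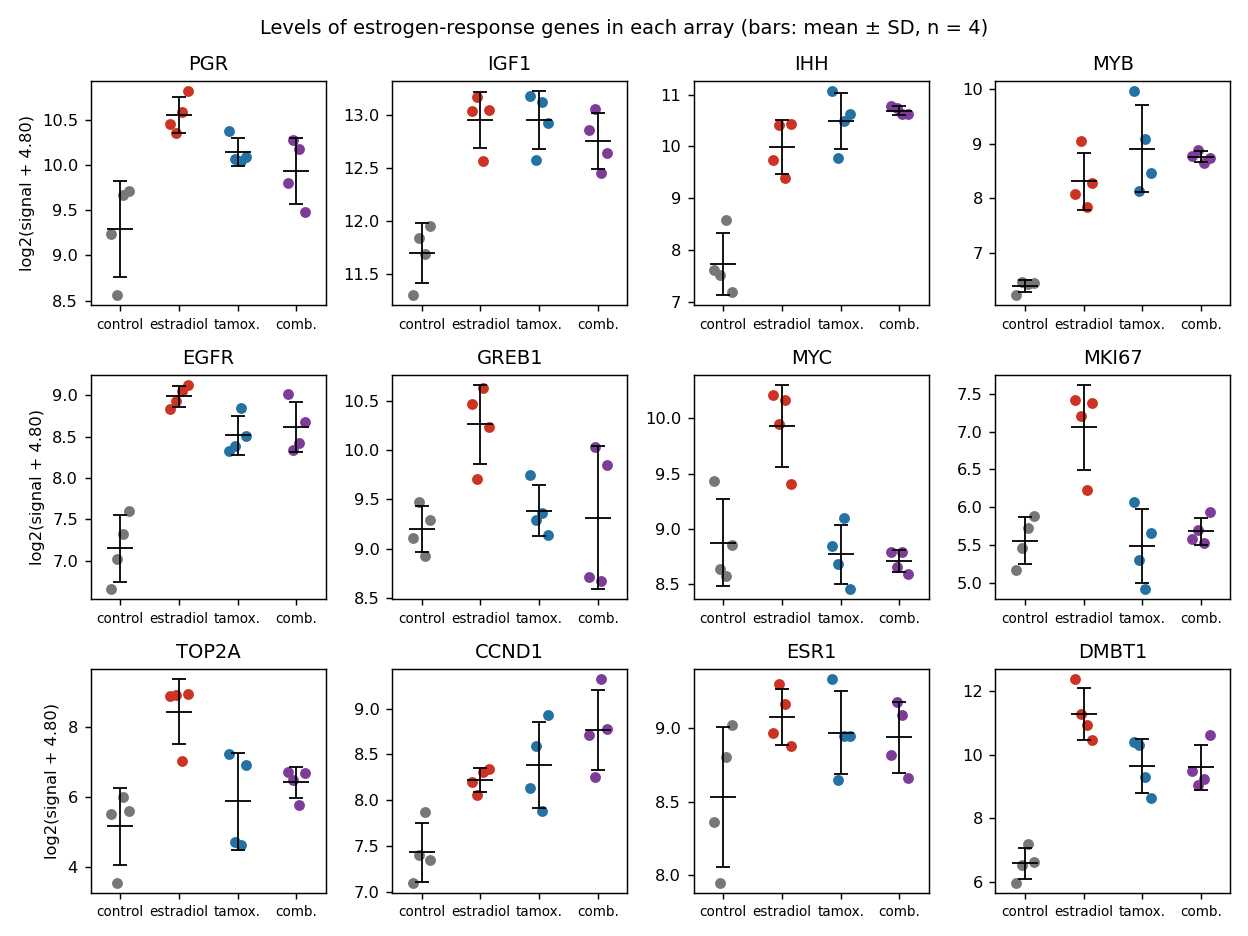
The log2 level of 12 genes in each of the 16 animals is shown by arm, with a point per array and the arm's mean and SD as a bar (n = 4). For IGF1, IHH, MYB and EGFR the tamoxifen and combination points lie side by side above the controls, for PGR combination 4 lies among them, and for GREB1, MYC, MKI67 and TOP2A the estradiol points alone stand higher on average.

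The list of estrogen-induced genes had 36 tested members. None passed the threshold in combination minus tamoxifen, 21 estimates were above 0 and 15 below, and the median was 0.046 against 0.0080 over all genes. The interval lay within 2-fold for 28 of the 36 (77.8%, beside 89.0% of all genes). The estimates ran from -0.64 to 1.04, the highest being that of RERG, which was 0.60 without tamoxifen 1. Of the 36, 17 passed the threshold with estradiol alone (16 higher and ADCY9, an adenylyl cyclase, lower), beside 29.7% of all genes. For 16 of these 17 the interval of combination minus tamoxifen lay within 2-fold, and for 8 within 1.5-fold. Of all 3176 genes called with estradiol alone, 2866 lay within 2-fold and 2171 within 1.5-fold. Among the 17, the exception at 2-fold was SRARP, a steroid receptor coregulator, with a difference of 0.71 (SE 0.65, 95% interval -0.66 to 2.09). For 16 of the 17 the interval also excluded the estimate of the estradiol change without tamoxifen, the exception here being CCND1. So did 2965 of the 3176. The error of that estimate did not enter, so these counts are a description. The interaction contrast, the estradiol response with tamoxifen minus that without, passed the threshold for 9 of the 36, all lower, beside 6.55% of all genes. The list was drawn up with earlier results of these data known, so its count does not support a direction.

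Several of these genes were held within 1.5-fold, among them FKBP4, SLC39A6, IGFBP4 and XBP1. RET was held within 2-fold only. FKBP4, a chaperone of steroid receptors, differed by -0.18 (SE 0.11, 95% interval -0.42 to 0.06) and had risen by 0.61 with estradiol alone. SLC39A6, a zinc transporter long used as an estrogen-regulated marker, differed by 0.06 (SE 0.11, 95% interval -0.16 to 0.29) against a rise of 0.37. IGFBP4, a secreted binding protein for IGFs, differed by -0.01 (SE 0.17, 95% interval -0.37 to 0.35) against 0.55. XBP1, a transcription factor of the secretory pathway, differed by 0.11 (SE 0.19, 95% interval -0.28 to 0.51) against 0.66. CXCL12, a stromal chemokine, had a difference of -0.01 in its brightest probe set, while its other tested probe sets ran from -0.65 to -0.18. RET, a receptor tyrosine kinase, differed by -0.28 (SE 0.23, 95% interval -0.76 to 0.21) against 0.89. OLFM1, a secreted glycoprotein of receptive endometrium, read 8.06, 8.13, 8.57 and 8.59 with tamoxifen and 8.59, 8.59, 7.73 and 8.55 with the combination. Combination 3 was the low array there and the other 3 stood at or near the top of the tamoxifen range, with a difference of 0.03 (SE 0.28), while estradiol alone raised OLFM1 by 1.86 (adjusted p = 3.26e-04, limma).

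**Figure D3:**
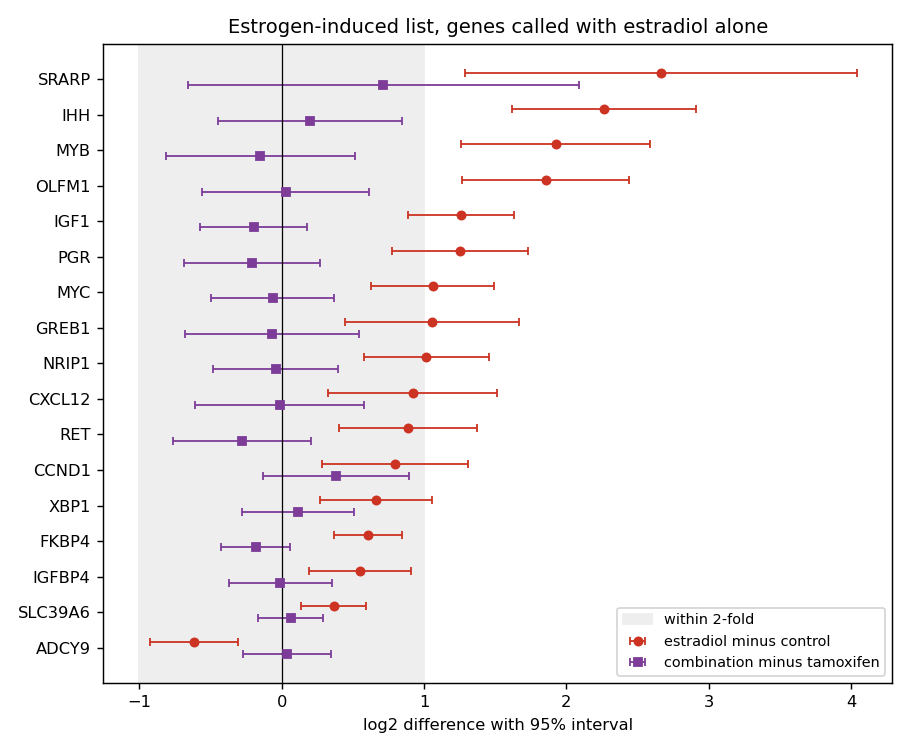
For the 17 estrogen-induced genes called in estradiol minus control, the log2 difference and 95% interval of combination minus tamoxifen are drawn beside those of estradiol minus control. A shaded band marks the range within 2-fold. All combination intervals cross 0 and all but that of SRARP stay within 2-fold, while the estradiol estimates run from -0.62 for ADCY9 to 2.66 for SRARP.

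IHH, the hedgehog ligand by which uterine epithelium signals to stroma, was nearly the same in both arms. It read 11.06, 9.78, 10.50 and 10.63 in tamoxifen 1 to 4 and 10.78, 10.74, 10.62 and 10.62 in combination 1 to 4. The combination arrays were tightly grouped inside the tamoxifen range, and the difference was 0.20 (SE 0.30, 95% interval -0.45 to 0.85). Estradiol alone raised IHH by 2.27 (SE 0.30) (adjusted p = 1.72e-04, limma), and the estradiol response differed with tamoxifen by -2.07 (adjusted p = 0.0101, limma). MYB, a transcription factor of proliferating glands, read 9.97, 8.14, 9.08 and 8.46 with tamoxifen and 8.78, 8.88, 8.65 and 8.74 with the combination. The combination arrays again fell within the tamoxifen range, with a difference of -0.15 (SE 0.31, 95% interval -0.81 to 0.51) against a rise of 1.92 with estradiol alone (adjusted p = 6.05e-04, limma).

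Of the 34 tested uterine paracrine and developmental genes, none was called and 24 were held within 2-fold (70.6%, beside 89.0% of all genes). Of their estimates 22 were positive, with a median of 0.064. HOXA11, a homeobox factor of uterine stroma, and HOXA9, another factor of the HOXA cluster, had the narrowest intervals, at -0.15 to 0.30 and -0.19 to 0.31. At the wide end were WNT2 and BMP4, ligands exchanged between stroma and epithelium. WNT2 read 7.96, 6.16, 8.18 and 6.80 with tamoxifen and 5.99, 6.69, 5.72 and 6.23 with the combination. Tamoxifen 1 and 3 were high and the combination arrays lay at or near the bottom, overlapping tamoxifen 2, and the difference was -1.12 (SE 0.53) (unadjusted p = 0.0510, adjusted p = 1.00, limma). BMP4 differed by 0.47 (SE 0.25) (adjusted p = 1.00, limma).

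In the IGF axis, 12 of 16 tested genes were held within 2-fold (beside 89.0% of all genes) and none was called. IGF1, the stromal growth factor through which estradiol acts on epithelium, read 13.18, 12.57, 13.12 and 12.93 with tamoxifen and 12.86, 13.06, 12.45 and 12.64 with the combination. The groups overlapped and the difference was -0.20 (SE 0.18, 95% interval -0.57 to 0.18), while estradiol alone raised IGF1 by 1.26 (SE 0.18) (adjusted p = 2.16e-04, limma). The interaction for IGF1 was -1.46 (adjusted p = 0.00408, limma). IGFBP2, which binds IGFs outside the cell, read 11.37, 11.79, 11.55 and 11.55 with tamoxifen and 11.94, 11.63, 11.96 and 11.66 with the combination. Both arms stood well above the controls at 10.13, 9.88, 10.16 and 9.77, and the difference between them was 0.23 (SE 0.15, 95% interval -0.09 to 0.55). IGF2R, the receptor that clears IGF2, was held at -0.33 to 0.24.

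Of 9 tested genes of the EGF family, 5 were held within 2-fold (beside 89.0% of all genes) and none was called. EGFR, the receptor, read 8.33, 8.39, 8.85 and 8.51 with tamoxifen and 9.02, 8.34, 8.43 and 8.67 with the combination, overlapping, with a difference of 0.10 (SE 0.19, 95% interval -0.32 to 0.51). Estradiol alone raised EGFR by 1.84 (SE 0.19) (adjusted p = 3.73e-05, limma), and the interaction was -1.74 (adjusted p = 0.00288, limma). ERBB2, a partner of EGFR, was held at -0.13 to 0.41. BTC, the ligand betacellulin, read 7.08, 7.88, 7.84 and 7.53 with tamoxifen and 8.21, 8.25, 8.54 and 7.69 with the combination. Combination 1 to 3 lay above every tamoxifen array and combination 4 within their range. The difference was 0.59 (SE 0.23) (unadjusted p = 0.0210, adjusted p = 1.00, limma), and the other probe set of BTC differed by 0.24. NRG2, a neuregulin, differed by -0.51 (SE 0.35).

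Cell division genes, most of which estradiol alone raised, had a lower mean level on all 8 tamoxifen and combination arrays than on any estradiol array. The list of 21 tested mitosis genes held 16 that rose and 1 that fell with estradiol alone (beside 16.5% and 13.2% of all genes), with a median change of 1.5. In combination minus tamoxifen none was called and 15 were held within 2-fold (beside 89.0% of all genes). Of 21 estimates 19 were above 0 (beside 5612 of 10706 genes), with a median of 0.11. MKI67, the proliferation antigen Ki-67, read 6.07, 5.30, 4.92 and 5.66 in tamoxifen 1 to 4 and 5.58, 5.70, 5.53 and 5.93 in combination 1 to 4. All 8 arrays lay below the estradiol arrays, at 7.42, 7.21, 6.23 and 7.37, and the difference was 0.20 (SE 0.28, 95% interval -0.40 to 0.80). TOP2A, a topoisomerase of dividing cells, read 7.23, 4.74, 4.64 and 6.93 with tamoxifen and 6.73, 6.51, 5.77 and 6.71 with the combination. Tamoxifen 1 and 4 were high and tamoxifen 2 and 3 low, the combination arrays lay between them, and the difference was 0.55 (SE 0.65, 95% interval -0.83 to 1.92).

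The score of the mitosis list showed the same division within the tamoxifen arm. It was 0.042, -0.71, -0.57 and 0.10 in tamoxifen 1 to 4 and -0.0052, -0.10, -0.30 and 0.12 in combination 1 to 4. ZWINT, a kinetochore protein, read 7.14, 5.21, 5.47 and 6.13 with tamoxifen and 6.55, 6.77, 5.63 and 6.99 with the combination, with the same tamoxifen arrays high and low, and differed by 0.49 (SE 0.44, 95% interval -0.45 to 1.44). DLGAP5, a spindle protein of the list, did not share it, with 11.63 in tamoxifen 1 and at least 12.11 in tamoxifen 2 to 4. CENPF, another kinetochore protein, differed by 0.38 (SE 0.28, 95% interval -0.22 to 0.97), and its other tested probe set by -0.44. The 24 tested DNA replication genes leaned the other way, with 5 estimates above 0, 19 below and a median of -0.09. Over all genes 5612 estimates were above 0 and 5094 below. Of the 24, none was called and 20 were held within 2-fold (beside 89.0% of all genes). With estradiol alone 13 had risen and 1 had fallen (beside 16.5% and 13.2% of all genes). RPA3, a subunit of the single-strand binding complex, differed by -0.19 (SE 0.08, 95% interval -0.37 to -0.01). Over every setting tried its smallest adjusted p was 0.704 (limma). POLE2, a polymerase epsilon subunit, differed by -0.06 (SE 0.07, 95% interval -0.20 to 0.09).

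G1 regulators were held for 16 of 17 tested genes (94.1%, beside 89.0% of all genes). CCND1, the cyclin that starts G1, read 8.13, 8.59, 7.88 and 8.94 with tamoxifen and 8.71, 8.25, 9.33 and 8.78 with the combination. The arrays overlapped, and the difference of 0.38 (SE 0.24, 95% interval -0.13 to 0.90) left room for the rise of 0.80 seen with estradiol alone to lie inside the interval. CDK4, the kinase partner of CCND1, was held at -0.25 to 0.10, and E2F3, a G1/S transcription factor, differed by 0.39 (SE 0.22, 95% interval -0.08 to 0.86). MYC, a growth regulator and early estrogen target, read 8.84, 8.68, 9.10 and 8.45 with tamoxifen and 8.79, 8.65, 8.79 and 8.59 with the combination, close to the controls at 9.43, 8.63, 8.57 and 8.85. The arms overlapped and the difference was -0.06 (SE 0.20, 95% interval -0.49 to 0.37). Estradiol alone raised MYC by 1.06 (SE 0.20) (adjusted p = 0.00172, limma), and the estradiol response differed with tamoxifen by -1.12 (adjusted p = 0.0248, limma).

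FOXO and quiescence genes, active in resting cells, fell with estradiol alone for 15 of 23 tested and rose for 1 (beside 13.2% and 16.5% of all genes). In combination minus tamoxifen none was called and 18 were held (beside 89.0% of all genes). Of the estimates 11 were above 0 and 12 below, and the median was -0.01. FOXO1, the forkhead factor of decidualizing stroma, read 10.90, 11.55, 11.34 and 10.87 with tamoxifen and 10.73, 11.07, 11.02 and 10.89 with the combination, and differed by -0.24 (SE 0.18, 95% interval -0.62 to 0.14). FBXO32, a ubiquitin ligase that FOXO factors induce, read 9.05, 10.01, 10.58 and 10.73 with tamoxifen and 10.17, 10.55, 10.50 and 10.78 with the combination. Tamoxifen 1 was the low array and the other 7 lay between 10.01 and 10.78, with a difference of 0.41 (SE 0.53, 95% interval -0.72 to 1.53), while estradiol alone changed FBXO32 by -3.01 (SE 0.53) (adjusted p = 0.00101, limma). BCL2L11, the apoptosis inducer BIM, read 8.86, 8.58, 8.88 and 8.62 with tamoxifen and 8.24, 8.35, 8.21 and 8.55 with the combination. All 4 combination arrays lay below all 4 tamoxifen arrays, and the difference was -0.40 (SE 0.13) (unadjusted p = 0.00925, adjusted p = 1.00, limma), while its other probe sets differed by -0.12 to -0.01. KLF2, a quiescence factor, differed by -0.47 (SE 0.18) (unadjusted p = 0.0224, adjusted p = 1.00, limma), with -0.45 in its other probe set. TXNIP, a thioredoxin inhibitor, was held at -0.24 to 0.17 although estradiol alone changed it by -0.67 (SE 0.10) (adjusted p = 2.58e-04, limma).

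Mucous and secretory genes were the least well bounded pathway list, with none called. Of 16 tested genes 5 were held within 2-fold (beside 89.0% of all genes). Their score ran from 0.20 to 1.11 in the tamoxifen arrays and from 0.44 to 0.74 in the combination arrays. MUC1, the cell-surface mucin of uterine epithelium, read 9.93, 8.19, 9.13 and 8.03 with tamoxifen and 9.13, 9.10, 9.35 and 9.21 with the combination. The combination arrays were closely grouped inside the wide tamoxifen range, with a difference of 0.38 (SE 0.39, 95% interval -0.45 to 1.21). TFF3, a secreted trefoil peptide, read 7.01, 5.94, 5.83 and 6.44 with tamoxifen and 7.23, 6.58, 7.11 and 7.08 with the combination. Tamoxifen 1 lay inside the combination range and the other 3 tamoxifen arrays lay below it. The difference was 0.69 (SE 0.36, 95% interval -0.07 to 1.46) with an unadjusted p of 0.0704 and an adjusted p of 1.00 (limma), and it was 0.93 without tamoxifen 1. CXCL17, a mucosal chemokine, read 7.76, 7.93, 7.65 and 7.65 with tamoxifen and 9.53, 7.53, 8.84 and 8.60 with the combination, 3 of which lay above the tamoxifen arrays. It differed by 0.88 (SE 0.33) (adjusted p = 1.00, limma), while tamoxifen alone stood 2.61 above control (adjusted p = 4.22e-04, limma) and estradiol alone 0.36 (adjusted p = 0.460, limma). PAEP, the secretory-phase protein glycodelin, differed by -0.52 (SE 0.26) (adjusted p = 1.00, limma). NPY, a neuropeptide, read 9.21, 9.07, 11.48 and 10.06 with tamoxifen and 10.85, 9.18, 11.19 and 10.88 with the combination, overlapping, with a difference of 0.57 (SE 0.76, 95% interval -1.05 to 2.20), and the controls read 2.83, 5.91, 6.10 and 6.12.

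Of 33 tested extracellular matrix genes, 26 were held within 2-fold (beside 89.0% of all genes) and none was called. The interaction passed the threshold for 13 of the 33, all lower, beside 6.55% of all genes. LAMB1, a laminin chain, read 9.13, 9.34, 8.98 and 9.36 with tamoxifen and 9.63, 9.68, 9.44 and 9.82 with the combination. The combination arrays all lay above the tamoxifen arrays, and the difference of 0.44 (SE 0.13), close to the 0.42 of estradiol alone, had an unadjusted p of 0.00391 and an adjusted p of 1.00 (limma). The other tested probe set of LAMB1 differed by 0.20. COL15A1, a basement membrane collagen, read 11.37, 11.46, 11.12 and 11.36 with tamoxifen and 11.62, 11.53, 11.96 and 11.51 with the combination, also without overlap, and differed by 0.33 (SE 0.11) (adjusted p = 1.00, limma), but its other probe set by -0.06. COL6A3, a microfibrillar collagen, was held at -0.19 to 0.13.

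Immediate early genes were held for 16 of 18 tested (88.9%, beside 89.0% of all genes). FOSL2, a member of the AP-1 family, read 8.93, 9.62, 9.33 and 9.48 with tamoxifen and 9.71, 9.92, 9.98 and 9.62 with the combination. Tamoxifen 2 was level with combination 4 and the other arrays did not overlap, and the difference was 0.46 (SE 0.18) (unadjusted p = 0.0194, adjusted p = 1.00, limma). Estradiol alone changed FOSL2 by -0.85 (SE 0.18) (adjusted p = 0.00308, limma), and the estradiol responses with and without tamoxifen differed by 1.31 (SE 0.25) (adjusted p = 0.00687, limma). ATF3, a stress-induced member of the same wider family, differed by -0.63 (SE 0.38, 95% interval -1.44 to 0.18). JUND and NR4A2, a further AP-1 member and an orphan receptor, were held at -0.33 to 0.19 and -0.33 to 0.35.

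The secretory and metabolic lists were among the tightest. All 18 tested unfolded protein response genes were held within 2-fold, 16 of them within 1.5-fold (beside 9532 and 6725 of 10706 genes). With estradiol alone 10 rose and 3 fell (beside 16.5% and 13.2% of all genes). DNAJB11, a chaperone of the endoplasmic reticulum, differed by 0.09 (SE 0.10, 95% interval -0.12 to 0.30) and had risen by 1.03 with estradiol alone (adjusted p = 1.82e-05, limma), and its interaction was -0.94 (adjusted p = 0.00223, limma). ATF4, which translates endoplasmic reticulum stress into transcription, and CANX, the chaperone calnexin, were held at -0.10 to 0.39 and -0.24 to 0.09. Of 20 tested cholesterol synthesis genes, 19 were held (beside 89.0% of all genes) and 14 estimates were above 0, with a median of 0.065. Of the 20, 9 had risen with estradiol alone (beside 16.5% of all genes). MVD, an enzyme of the mevalonate pathway, differed by 0.23 (SE 0.15, 95% interval -0.09 to 0.56) against a rise of 0.83. STARD4, a cholesterol carrier, differed by 0.32 (SE 0.19, 95% interval -0.08 to 0.73) against 1.15, with no overlap between the arms.

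Estrogen metabolism, retinoid and interferon genes were bounded less evenly, each list with a smaller share held than the 89.0% of all genes. Of 5 tested estrogen metabolism genes 4 were held, the exception being CYP1B1, which hydroxylates estrogens and differed by -0.50 (SE 0.41, 95% interval -1.38 to 0.37). HSD17B8, a dehydrogenase that can inactivate estradiol, was held at -0.16 to 0.57. Of 17 tested retinoid genes 9 were held. CRABP1, a retinoic acid binding protein, read 8.46, 6.52, 7.84 and 7.06 with tamoxifen and 7.95, 8.95, 8.88 and 7.64 with the combination, overlapping, and differed by 0.88 (SE 0.50, 95% interval -0.17 to 1.94). Of 18 tested type I interferon genes 12 were held and 14 estimates were below 0, with a median of -0.27. IFI27, an interferon-induced gene, read 8.61, 8.91, 10.86 and 8.53 with tamoxifen and 7.60, 6.92, 6.22 and 9.78 with the combination. Tamoxifen 3 was the highest of the 8 and combination 3 the lowest, and the difference was -1.60 (SE 0.69) (unadjusted p = 0.0338, adjusted p = 1.00, limma). The score of all 18 interferon genes was 0.91 in tamoxifen 3 and between -0.16 and -0.10 in the other tamoxifen arrays, and ran from -0.50 to 0.35 in the combination arrays. The part of tamoxifen 3 in the list's lower estimates was not tested.

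The genes that estradiol alone had moved most were then followed with tamoxifen. Of the 12 highest and 12 lowest changes without overlap in estradiol minus control, none was called in combination minus tamoxifen, and the estimates ran from -0.28 for ST6GAL2 to 1.32 for CCL11. DMBT1, a secreted scavenger protein of mucosal epithelium with the highest change, rose from 5.98, 6.53, 7.19 and 6.63 in the controls to 12.39, 11.28, 10.95 and 10.48 with estradiol. It read 10.40, 10.31, 9.30 and 8.63 in the tamoxifen animals and 9.50, 9.06, 9.25 and 10.63 in the combination animals. Those 8 arrays overlapped at a level between the controls and most estradiol arrays, and the difference was -0.05 (SE 0.46, 95% interval -1.02 to 0.92) against 4.70 with estradiol alone. MFSD2A, a lipid transporter, differed by 0.11 (SE 0.43, 95% interval -0.79 to 1.02) against 3.32. MME, the stromal peptidase CD10, differed by 0.06 (SE 0.43, 95% interval -0.86 to 0.98) against 3.17, but its other tested probe set moved by -0.07 with estradiol alone. TNC, the matrix protein tenascin C, differed by 0.36 (SE 0.40, 95% interval -0.50 to 1.22) against 3.33, and CPM, a membrane carboxypeptidase, by 0.49 (SE 0.42, 95% interval -0.41 to 1.38) against 3.48. LGALS7B, a galectin of stratified epithelium, read 11.87, 10.08, 9.69 and 11.23 with tamoxifen and 11.29, 12.52, 11.71 and 11.60 with the combination. It had one of the higher estimates, at 1.06 (SE 0.61, 95% interval -0.24 to 2.36), with overlap between the arms, and the score of 8 squamous epithelium markers ran from 0.021 to 0.11 with tamoxifen and from 0.0028 to 0.43 with the combination, a part that was not tested.

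Among the genes that estradiol alone had lowered most, GPIHBP1, the capillary anchor of lipoprotein lipase, was held at -0.60 to 0.68 against -2.49. RGS9, a regulator of G-protein signalling, was held at -0.77 to 0.97 against -2.52. FIBIN, a secreted protein, read 5.32, 9.37, 7.32 and 8.89 with tamoxifen and 8.14, 8.88, 8.53 and 9.04 with the combination, with tamoxifen 1 far below the rest. Its difference of 0.92 (SE 0.86, 95% interval -0.91 to 2.76) ran against the change of -3.63 with estradiol alone and was 0.12 without tamoxifen 1. CCL11, the chemokine eotaxin, read 4.22, 8.48, 4.88 and 8.73 with tamoxifen and 6.31, 8.02, 7.62 and 9.63 with the combination. Tamoxifen 1 and 3 were the low arrays, and the difference of 1.32 (SE 1.07, 95% interval -0.96 to 3.60) has too wide an interval to place it.

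A separate question is whether estradiol acted differently with and without tamoxifen, which the interaction contrast tests directly. It passed the threshold for 3019 probe sets and 1212 genes (11.3% called), 511 with a positive value (4.77%) and 701 with a negative value (6.55%). A positive value need not mean a larger response. FBXO32, for example, was lowered by estradiol alone and had an estimate above 0 under tamoxifen. The contrast contains the estradiol change itself, so for the 680 responsive genes, which were chosen on that change, it was not counted. The values that follow were picked as the extremes among the genes past the threshold in the contrast and are a description. The most negative values belonged to DMBT1 at -4.75 (SE 0.65) (adjusted p = 0.00163, limma), followed by ST6GAL2, a sialyltransferase, at -3.61, MFSD2A at -3.21, TGFBI, a matrix protein, at -3.18, and DMKN, a secreted epithelial protein, at -3.18. The most positive were FIBIN at 4.56, SNX15, a sorting nexin, at 4.34, FBXO32 at 3.41, SEMA3C, a semaphorin, at 3.23, and CNTN5, a neural adhesion molecule, at 3.19. In each of these 10 the combination minus tamoxifen interval included 0, and all had a called change with estradiol alone.

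The genes that came nearest to a difference between the arms were listed by their size among those without overlap. In 313 genes (2.92% of 10706) the 4 tamoxifen arrays and the 4 combination arrays did not overlap, 133 higher and 180 lower with added estradiol. Arm labels in random order would separate 4 from 4 arrays at a rate of 0.0286. None of these differences passed the threshold, so they are a description. PI16, a marker of adventitial fibroblasts, had the lowest estimate. It read 7.46, 6.95, 7.66 and 7.76 with tamoxifen and 4.86, 6.07, 5.91 and 6.94 with the combination. The highest combination array lay just under the lowest tamoxifen array, and the difference was -1.51 (SE 0.37, 95% interval -2.30 to -0.73) (unadjusted p = 8.97e-04, adjusted p = 1.00, limma). The controls read 8.04, 8.01, 7.89 and 8.39 and estradiol alone differed from them by -1.24 (adjusted p = 0.0225, limma). Over every setting tried the PI16 difference ran from -1.84 to -1.15, with a smallest adjusted p of 0.577 (limma).

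DSC2, a desmosomal cadherin of epithelium, read 7.94, 6.80, 8.04 and 7.62 with tamoxifen and 8.28, 9.01, 8.97 and 8.53 with the combination. It was higher in all 4 combination arrays, with a difference of 1.10 (SE 0.33, 95% interval 0.39 to 1.81) (unadjusted p = 0.00478, adjusted p = 1.00, limma). Estradiol alone raised DSC2 by 1.92 (SE 0.33) (adjusted p = 9.25e-04, limma), and its interaction was -0.83 (adjusted p = 0.289, limma). TBX2, a T-box repressor, read 6.40, 6.99, 6.31 and 7.18 with tamoxifen and 7.55, 7.36, 7.79 and 7.55 with the combination. Its difference of 0.84 (SE 0.26, 95% interval 0.29 to 1.39) was near the 1.02 of estradiol alone, and its other probe set differed by 0.68. ATP8B1, a phospholipid flippase, differed by 0.98 (SE 0.34, 95% interval 0.26 to 1.70), and CRACR2B, a regulator of calcium entry, by 0.92 (SE 0.47, 95% interval -0.08 to 1.93).

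For 5 of the 20 genes listed by size, the estimate with tamoxifen was opposite in sign to that of estradiol alone and the interaction passed the threshold. These genes were picked by their difference between the arms, which is part of the interaction, so the interaction values are a description. TAGAP, a GTPase-activating protein of lymphocytes, read 9.25, 9.04, 9.01 and 9.03 with tamoxifen and 10.16, 9.87, 10.53 and 9.80 with the combination. The tamoxifen arrays were very close together and the combination arrays all lay above them, with a difference of 1.01 (SE 0.30, 95% interval 0.36 to 1.65) (unadjusted p = 0.00459, adjusted p = 1.00, limma). Estradiol alone changed TAGAP by -1.19 (SE 0.30) (adjusted p = 0.0102, limma), and the responses differed by 2.19 (SE 0.43) (adjusted p = 0.00752, limma). The score of 15 tested T and NK cell markers ran from -0.34 to -0.09 in the tamoxifen arrays and from -0.88 to -0.13 in the combination arrays, so that it was lower on average where TAGAP read higher, and its part in the TAGAP values was not tested. ADAMTS5, a secreted aggrecan protease, read 10.47, 11.80, 11.88 and 12.12 with tamoxifen and 12.37, 12.39, 12.62 and 12.52 with the combination. It differed by 0.90, or 0.54 without the low tamoxifen 1, against -0.88 with estradiol alone, and its interaction was 1.79 (adjusted p = 0.0207, limma). POPDC3, a membrane protein of muscle, differed by 1.10 (SE 0.29, 95% interval 0.49 to 1.71) with an interaction of 1.74 (adjusted p = 0.0164, limma). LOC702093, a gene without a functional name, differed by 0.88 (SE 0.28) with an interaction of 2.09 (adjusted p = 0.00692, limma). PARVB, an integrin adaptor, was the case with the lower estimate under tamoxifen, at -0.95 (SE 0.30, 95% interval -1.58 to -0.31) against 0.45 with estradiol alone, with an interaction of -1.40 (adjusted p = 0.0489, limma).

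Among the other genes with a lower estimate under added estradiol, HS3ST1, a heparan sulfate sulfotransferase, read 8.31, 8.51, 8.63 and 8.28 with tamoxifen and 7.24, 7.71, 8.13 and 7.93 with the combination and differed by -0.68 (SE 0.20, 95% interval -1.11 to -0.25). CITED1, a transcriptional coactivator, differed by -0.74 (SE 0.43, 95% interval -1.66 to 0.18), ADCY8, an adenylyl cyclase, by -0.90 (SE 0.57, 95% interval -2.11 to 0.31), and DRD4, a dopamine receptor, by -0.64 (SE 0.32, 95% interval -1.31 to 0.03). LPL, lipoprotein lipase, read 9.93, 9.93, 10.25 and 9.40 with tamoxifen and 8.95, 9.37, 9.28 and 9.14 with the combination, all below the tamoxifen arrays. It differed by -0.69 (SE 0.27), with -0.61 to -0.08 in its other probe sets, and stood 1.15 above control with tamoxifen alone (adjusted p = 0.0120, limma). ITGA1, an integrin chain with the largest positive estimate among the genes without overlap, read 5.55, 8.47, 8.0 and 8.40 with tamoxifen and 9.12, 8.61, 8.51 and 8.59 with the combination. Most of its difference of 1.10 (SE 0.86) came with tamoxifen 1, without which it was 0.42.

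**Figure D4:**
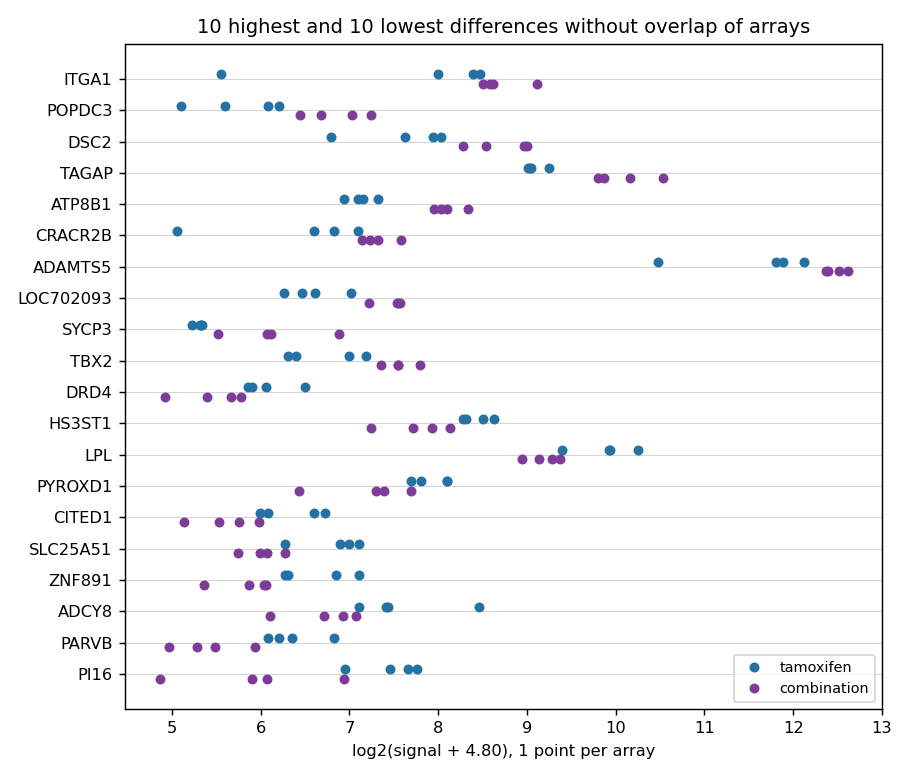
For the 10 highest and 10 lowest differences among genes without overlap, the log2 level of every tamoxifen and combination array is shown. The gap between the arms is narrow next to the spread for most genes, and tamoxifen 1 stands apart for ITGA1 and ADAMTS5.

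Tissue makeup differed between single arrays more than between the arms. Of 18 tested smooth muscle markers 17 had estimates above 0, with a median of 0.25, but 3 of 18 were held within 2-fold. Their score was -0.76 in tamoxifen 1, 0.55, 0.0025 and 0.55 in tamoxifen 2 to 4, and 0.27 to 0.42 in the combination arrays. Of 14 tested epithelial markers 9 were held, and the score ran from -0.50 to 0.85 with tamoxifen and from 0.031 to 0.49 with the combination. The score of 11 ciliated cell markers ran from -0.28 to 1.39, with tamoxifen 1 at the top, and from 0.27 to 0.51. Of 19 stromal fibroblast markers 15 were held, and of 21 endothelial markers 20. These counts of held markers stand beside 89.0% of all genes. In none of the 13 marker lists was a gene called. The part of tissue makeup in the differences above was not tested. Values without tamoxifen 1 are given above for some genes only. Other estimates also moved without it, among them CCL11 (1.32 to 0.53), CYP1B1 (-0.50 to -0.09) and FBXO32 (0.41 to 0.06). TOP2A (0.55 to 0.99) and MUC1 (0.38 to 0.75) moved further from 0.

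**Figure D5:**
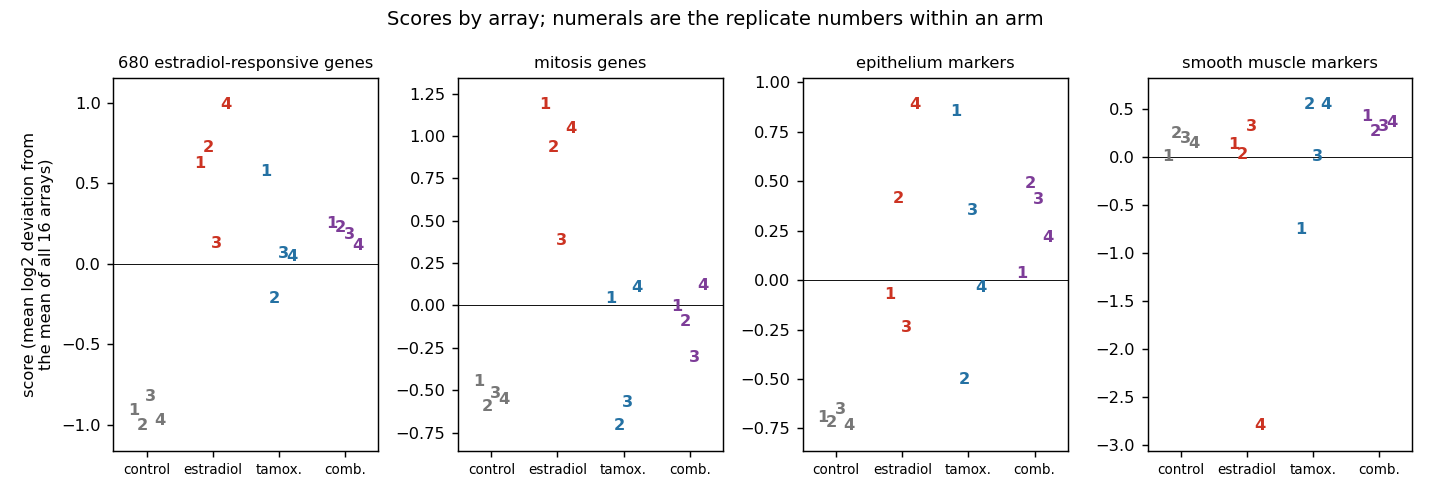
Scores per array, in log2 units, are shown by arm for the 680 estradiol-responsive genes, the mitosis genes, the epithelial markers and the smooth muscle markers, with each animal's number at its point. Tamoxifen 1 is the highest tamoxifen array for the responsive and epithelial scores and the lowest for smooth muscle, and the 4 combination arrays lie within the range of the tamoxifen arrays in all 4 panels except for combination 4 in the mitosis panel.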

How the data were processed

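Total RNA of endometrium from 16 animals was measured on 1-colour arrays, 1 per animal, and arms and replicates were taken from the sample titles. The authors deposited 1 MAS5 intensity per probe set and array, not log-transformed. GCOS, Affymetrix Expression Console and MAS5 are named, without versions, per the submitters' processing notes, and no scaling target is given there. Trimmed by 2% at both ends, the mean signal came to 250.0 on every array, which shows scaling, and no further normalization was applied. Changes are therefore relative to each array's total.

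The 99 control probe sets were left out. Values were taken to log2(signal + 4.80), the pseudocount being the 10th percentile of all values, which understates changes of dim genes. The dimmest 40% of probe sets by mean were dropped, and means for the 4 arms were fitted over 16 arrays with limma 3.58.1 in R 4.3.3 (trended eBayes, 12 residual degrees of freedom). Adjusted p is Benjamini-Hochberg over 31660 probe sets. The script was tested on simulated data, and figures were drawn with matplotlib 3.10.9. By the platform annotation 24956 probe sets have 1 symbol, 361 have several and 27449 have none, and only the first kind was named. Cross-hybridisation was not examined.

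Named genes were the 10 highest and 10 lowest differences without overlap of arrays in combination minus tamoxifen, the 12 highest and 12 lowest in estradiol minus control, 18 genes of estrogen biology chosen by name, per pathway list the 2 smallest p and 2 narrowest intervals, the estrogen-induced genes called with estradiol alone, and the 5 highest and 5 lowest interactions. The genes, the 30 lists (461 of 758 symbols tested) and the comparison itself were chosen with earlier results of these data known. Tamoxifen minus control shares its tamoxifen arrays with the main comparison and is given only side by side. Alternatives covered the pseudocount, the filter, quantile normalization, array weights, the variance trend, the arrays and probe sets fitted, a block on the replicate number, and leaving out each array.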

Additional observations from a re-analysis of the deposited data

Results flagged for a closer look

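In 20 of 324 sets of 4 arrays examined, the highest or lowest array lay far from the other 3 of its arm, where chance alone gives about 1 set in 20. Tamoxifen 1 was the low array for DLGAP5 (11.63, next 12.11), ITGA1 (5.55, next 8.0) and TXNIP (13.10, next 13.21) and the high array for NR3C1 (8.97), PGR (10.38) and TAGAP (9.25). Tamoxifen 3 was high for IFI27 (10.86, next 8.91) and for the interferon score (0.914, next -0.102), and low for RGS9 (5.60) and for the blood score, which rests on 1 gene (-0.592). Tamoxifen 4 was high for E2F2 (5.82). In the combination arm, combination 1 was high for ITGA1 (9.12) and low for LOC702093 (7.22) and the retinoid score (-0.172). Combination 2 was low for NPY (9.18, next 10.85), combination 3 for CENPF (7.03), OLFM1 (7.73) and the estrogen-induced score (0.113), and combination 4 for RXRB (9.28). Combination 4 was high for the nerve and Schwann cell score (1.15).

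The estradiol response differed with and without tamoxifen in the interaction contrast (limma, adjusted p under 0.05) for 30 of 89 named genes examined, beside 11.3% of all genes. Those examined include genes picked as extremes of this contrast and of the estradiol change it contains, so their count is a description. The value of the contrast was negative for the hormone targets and growth factors PGR (-1.47), IHH (-2.07), MYB (-2.07), MYC (-1.12), IGF1 (-1.46), IGFBP2 (-1.35), EGFR (-1.74), FKBP4 (-0.79) and HOXA11 (-0.69). It was also negative for the cell cycle genes CDK4 (-0.54) and ZWINT (-2.99), the matrix genes COL15A1 (-1.02), COL6A3 (-0.50) and TGFBI (-3.18), and DNAJB11 (-0.94), DMBT1 (-4.75), DMKN (-3.18), MFSD2A (-3.21) and ST6GAL2 (-3.61). It was positive for the quiescence genes BCL2L11 (0.87), FBXO32 (3.41) and TXNIP (0.64), for FOSL2 (1.31), EP300 (0.35), OAS1 (0.55) and POLE2 (0.39), and for CNTN5 (3.19), FIBIN (4.56), SEMA3C (3.23) and SNX15 (4.34).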

How the results depend on the processing

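Combination minus tamoxifen gave 0 called probe sets under every setting run except without combination 2, where 1 probe set without a gene symbol passed (0 to 1 on leaving out single arrays). Estradiol minus control gave 8062, from 5952 to 8650 without single arrays, and 5359 when only probe sets with 1 gene symbol were tested, fewer being in the fit. The interaction gave 3019, from 1803 without estradiol 1 to 4271 without estradiol 3, with 1874 without estradiol 2 and 1872 without combination 3. Of the responsive genes 469 of 680 were held within 2-fold, 159 within 1.5-fold, and 392 to 718 without single arrays, the highest without estradiol 3, when 1001 genes counted as responsive. Their median difference, over genes chosen again in each setting, ran from -0.059 to 0.206. Without both tamoxifen 1 and estradiol 4, chosen after seeing the data, it was 0.166, with 0 calls in combination minus tamoxifen, 7724 in estradiol minus control and 2357 in the interaction.

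The replicate block, with the number in the titles as a block, gave 0, 7397 and 2609 calls and 453 of 660 responsive genes held. The titles do not say that the numbers pair the animals. Same-numbered tamoxifen and combination arrays deviated from their arm means with correlations of -0.028, -0.097, 0.0089 and 0.095. Differently numbered arrays gave -0.12 to 0.12, so these values do not settle whether the numbers pair animals.

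Of the named genes' values for combination minus tamoxifen, 2517 stayed as they were and 14 moved by more than the spread, 12 of these in another probe set of the gene, and none became a call. For the interaction 42 became calls and 60 were lost, and for estradiol alone 45 were lost. In the brightest other probe set the sign turned for the interaction of COL15A1 (0.029), OAS1 (-0.65) and POLE2 (-0.48) and for the estradiol change of MME (-0.067), and the cause was not tested. Signal over background limits what can be said of dim genes.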
